A study of Mus musculus with 12 samples.

Results

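The 8 genes described here encode secreted ligands of the vascular endothelial growth factor (VEGF) family, Vegfa, Vegfb, Vegfc and Pgf, and of the platelet-derived growth factor (PDGF) family, Pdgfa, Pdgfb, Pdgfc and Pdgfd. They were taken by exact symbol from 46983 gene symbols in each of 2 deposited tables of normalized read counts, and all 8 were found in both. RNA had been sequenced from infarcted neonatal mouse hearts (strain BL6/C57) that were split into cardiomyocytes (CM) and the remaining cells (NonCM). The 4 groups, of 3 libraries each, were NonCM of Wls fl/fl hearts, NonCM of control hearts, CM of Wls fl/fl hearts and CM of control hearts. Every mouse carried the MCM/+ allele, and Wls fl/fl mice had floxed Wls besides. MCM commonly stands for MerCreMer, a Cre that tamoxifen switches on. All mice were given 3 doses of tamoxifen over postnatal days 1 to 3, were infarcted at postnatal day 2 and gave tissue 2 weeks later, although the labels call the cells adult. The promoter behind MCM is not given in the sources used here, and no group had floxed Wls without MCM. The series description gives 3 hearts per condition, but the labels name no animal for a library, so that p-values here measure the spread between these libraries.

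VEGF ligands are paired proteins that bind tyrosine kinase receptors, mainly on endothelial cells. Vegfa acts through Kdr and Flt1 and drives the sprouting of blood vessels, Vegfb and Pgf bind Flt1, and Vegfc acts chiefly through Flt4 on lymphatic vessels. PDGF ligands bind Pdgfra and Pdgfrb, which mark fibroblasts and the pericytes and smooth muscle cells of the vessel wall, and in the developing vessel Pdgfb from endothelium recruits pericytes. In the heart, cardiomyocytes are a known source of Vegfa and Vegfb. Wls (Wntless) escorts Wnt proteins to the cell surface.

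Wls itself was checked in every library. Its normalized read counts were 91.6, 57.3 and 93.9 in CM of Wls fl/fl hearts, against 243, 201 and 210 in CM of control hearts. In NonCM they were 356, 323 and 316 in Wls fl/fl hearts, against 427, 374 and 407 in control hearts. The groups were apart in both fractions, and the log2 fold change was -1.45 (SE 0.17, limma, adjusted p = 0.00389) in CM and -0.28 (SE 0.08, adjusted p = 0.0831) in NonCM. The CM call was lost, with an adjusted p of up to 0.0898, without CM control replicate 3 or without replicate 3 of both genotypes. The NonCM value passed in edgeR (-0.25, adjusted p = 0.0333), in limma-voom (-0.25, adjusted p = 0.0368) and without NonCM control replicate 1 (-0.24, adjusted p = 0.0489), and reached an adjusted p of 0.578 with other libraries left out.

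Depth ranged from 1160146 reads in NonCM control replicate 1, where 1 read is worth 5.54 normalized counts, to 10281214 reads. Replicate 3 of each group lay as near to a weighted mean of replicates 1 and 2 as read counting allows (mean squared residual over counting variance 0.994 to 1.04, against 1.11 to 1.72 for the other replicates), so several ligand values are also given without replicate 3. The labels do not say whether replicate 3 was a separate heart. If it was not, the SDs, SEs, intervals and p-values here, which count 3 libraries per group, would be too small. The fractions differed in their markers without being pure. The 12 cardiomyocyte markers took 6.05% to 6.25% of reads in NonCM of Wls fl/fl hearts, 7.02% to 7.64% in NonCM of control hearts, 10.4% to 11.5% in CM of Wls fl/fl hearts and 10.6% to 10.7% in CM of control hearts. The 10 fibroblast markers took 1.36% to 1.47%, 0.924% to 0.946%, 0.106% to 0.134% and 0.104% to 0.116% in the same order of groups, and the 10 macrophage markers were close to absent from CM, with at most 0.0063%. The 12 endothelial markers took 0.212% to 0.223% in NonCM Wls fl/fl, 0.229% to 0.244% in NonCM control, 0.163% to 0.183% in CM Wls fl/fl and 0.170% to 0.193% in CM control libraries, so the fractions did not overlap. Of the markers of neutrophils Ly6g was at 0 in both CM groups.

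Per length of transcript, Vegfb was the most abundant of the 8 ligands in every group and Vegfa came next. CPM (reads of a gene, scaled to the same total in each library) per kilobase of exon averaged 68.2 ± 4.31 for Vegfb in NonCM of Wls fl/fl hearts, 73.5 ± 6.55 in NonCM of control hearts, 122 ± 0.639 in CM of Wls fl/fl hearts and 121 ± 5.56 in CM of control hearts (SD, n = 3 each, here and below). Vegfa averaged 40.2 ± 0.970, 42.6 ± 8.31, 62.2 ± 10.1 and 64.2 ± 6.47 CPM per kilobase in the same order of groups. Both stood well above the other 6 ligands, none of which averaged more than 9.74 CPM per kilobase in any group. Within each group the libraries of Vegfb and Vegfa did not overlap.

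Below these, the order of the means per kilobase of exon was the same in both fractions of control hearts. It differed between the fractions of Wls fl/fl hearts. In NonCM of Wls fl/fl hearts Pdgfb (9.72 ± 0.592 CPM per kilobase) was followed by Pdgfd (7.19 ± 0.514), Pdgfa (6.21 ± 0.472), Vegfc (5.06 ± 0.278), Pgf (4.12 ± 0.124) and Pdgfc (0.629 ± 0.0767), with no overlap between neighbours. In NonCM of control hearts the order was the same except that Pdgfa (7.35 ± 1.24) came before Pdgfd (6.01 ± 0.692), and the libraries of those neighbours overlapped. In CM of Wls fl/fl hearts Pdgfa (8.69 ± 0.311) and Pdgfb (8.31 ± 1.64) overlapped, then came Pdgfd (4.42 ± 0.360) and Vegfc (1.70 ± 0.271), and Pgf (0.484 ± 0.144) overlapped with Pdgfc (0.209 ± 0.098). In CM of control hearts Pdgfb (9.13 ± 0.907) overlapped with Pdgfa (8.78 ± 1.56), followed by Pdgfd (4.06 ± 1.26) and Vegfc (2.12 ± 0.575), with Pgf (0.721 ± 0.156) and Pdgfc (0.296 ± 0.252) overlapping at the end. With the longest transcript in place of all exons, Pdgfa (9.41 in NonCM of Wls fl/fl hearts) came before Pdgfd (7.25) there, Pgf before Vegfc in both NonCM groups, and Pdgfa before Pdgfb in CM of control hearts. By either length Pdgfc had the lowest mean in all 4 groups, and in CM it rested on 4, 10 and 8 reads in Wls fl/fl hearts and 18, 2 and 8 reads in control hearts.

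**Figure D1:**
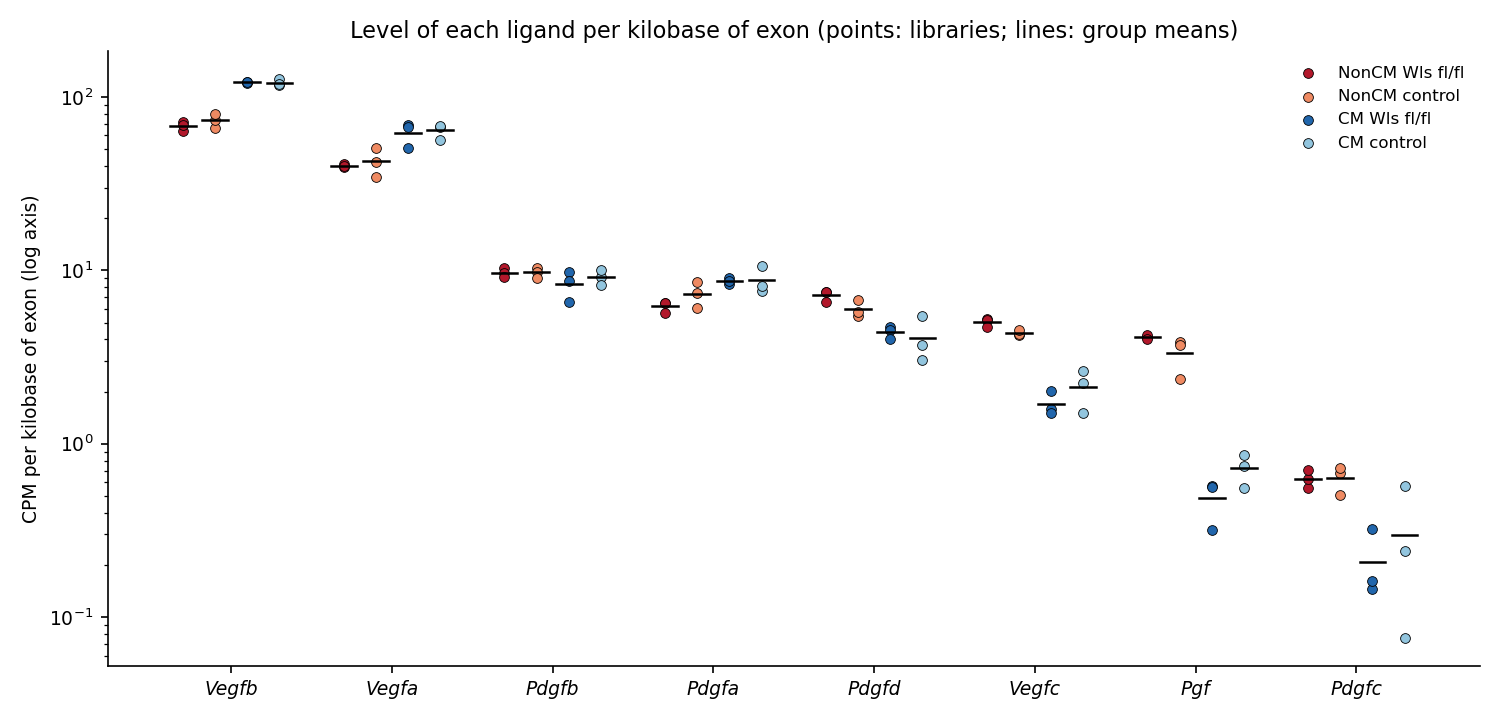
CPM per kilobase of exon (log axis) of each ligand in the 12 libraries, with NonCM of Wls fl/fl hearts leftmost in each set of 4 and CM of control hearts rightmost. Points are libraries and lines are group means; Vegfb and Vegfa lie above all other ligands in every group, and Pgf lies lowest in CM among the VEGF ligands.

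The VEGF ligands summed to 118 ± 5.11 CPM per kilobase in NonCM of Wls fl/fl hearts, 124 ± 6.62 in NonCM of control hearts, 186 ± 10.3 in CM of Wls fl/fl hearts and 188 ± 10.9 in CM of control hearts. The PDGF ligands summed to 23.8 ± 0.330, 23.7 ± 1.15, 21.6 ± 1.95 and 22.3 ± 1.68. Pgf and Vegfc together made a larger part of the VEGF sum in NonCM: Vegfc took 4.31% ± 0.305, 3.52% ± 0.136, 0.917% ± 0.202 and 1.12% ± 0.266 of it in the order above, and Pgf 3.51% ± 0.233, 2.70% ± 0.719, 0.261% ± 0.0835 and 0.387% ± 0.105. In the PDGF sum Pdgfb kept a share of 38.2% to 41.0% in all groups. Pdgfa took 26.1% ± 1.64, 30.9% ± 4.15, 40.3% ± 2.18 and 39.5% ± 6.28, and Pdgfd 30.3% ± 2.40, 25.4% ± 3.75, 20.5% ± 2.11 and 18.2% ± 5.27. The family sums are shares of all reads in a library and carry no test.

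**Figure D2:**
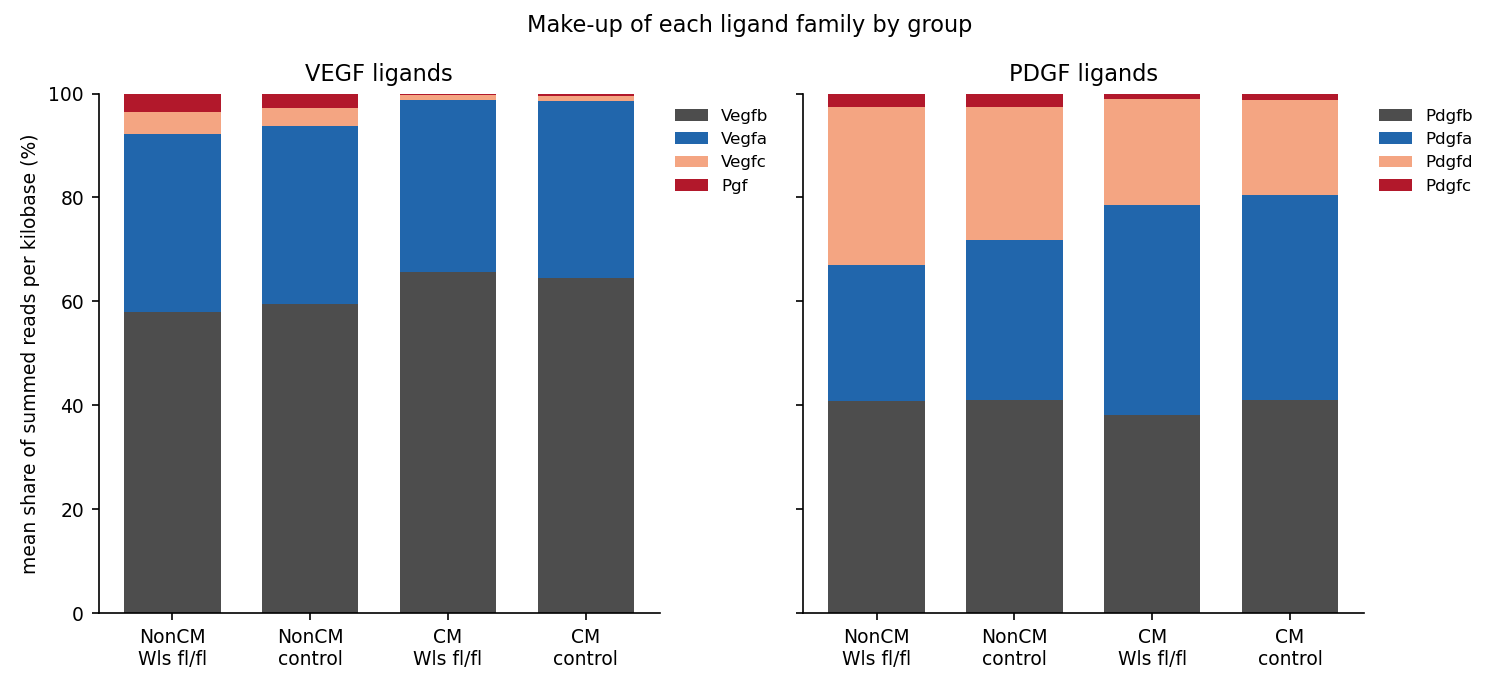
Mean share (%) of each ligand in the summed CPM per kilobase of its family, for the 4 VEGF ligands (left) and the 4 PDGF ligands (right), in NonCM of Wls fl/fl hearts, NonCM of control hearts, CM of Wls fl/fl hearts and CM of control hearts. Vegfc and Pgf are visible mainly in NonCM, where they take 4.31% and 3.51% (Wls fl/fl) or 3.52% and 2.70% (control), and the share of Pdgfa is larger in CM.

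NonCM against CM was the comparison in which the ligands differed. After scaling by the trimmed mean of M-values (TMM, which sets the typical gene to no change), 7 of 8 ligands passed the test in Wls fl/fl hearts, 4 higher and 3 lower in NonCM, and 6 of 8 passed in control hearts, 3 higher and 3 lower, and of those higher in Wls fl/fl hearts Pdgfc entered the test through its NonCM libraries alone (edgeR quasi-likelihood test, Benjamini-Hochberg adjusted p under 0.05 over all 13993 genes). Most genes differed between the fractions: 66.3% passed in Wls fl/fl hearts and 55.3% in control hearts, and by direction 33.6% were higher and 32.7% lower in Wls fl/fl hearts, and 28.1% higher and 27.2% lower in control hearts. The ligands' counts are near this background. Vegfa, Vegfb and Pdgfa were lower in NonCM, Vegfc, Pgf and Pdgfd were higher, and Pdgfc was higher by the test in Wls fl/fl hearts alone, although its difference between Wls fl/fl and control hearts did not pass (adjusted p = 0.776). In bulk RNA, fewer cells of a type and less RNA per cell cannot be told apart.

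The sequences just upstream of Vegfa, Vegfb and Vegfc are shown because the fractions moved the first pair one way and Vegfc the other. Each line gives the 250 bases before the RefSeq start (GRCm38.p6), 5′ to 3′ on the gene's strand, with the core letters of the hypoxia response element, ACGTG or GCGTG on either strand, in capitals.
Vegfa, chr17:46032378-46032627, minus strand: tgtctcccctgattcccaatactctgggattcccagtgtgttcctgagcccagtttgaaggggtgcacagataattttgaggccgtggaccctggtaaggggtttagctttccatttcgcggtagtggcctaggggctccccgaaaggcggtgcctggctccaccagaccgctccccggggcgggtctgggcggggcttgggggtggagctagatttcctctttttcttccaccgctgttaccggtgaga
Vegfb, chr19:6987652-6987901, minus strand: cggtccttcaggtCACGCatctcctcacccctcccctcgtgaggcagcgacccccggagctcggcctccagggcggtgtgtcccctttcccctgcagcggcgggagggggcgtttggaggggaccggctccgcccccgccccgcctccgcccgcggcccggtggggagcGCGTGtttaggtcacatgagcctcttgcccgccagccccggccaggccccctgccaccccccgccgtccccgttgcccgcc
Vegfc, chr8:54077282-54077531, plus strand: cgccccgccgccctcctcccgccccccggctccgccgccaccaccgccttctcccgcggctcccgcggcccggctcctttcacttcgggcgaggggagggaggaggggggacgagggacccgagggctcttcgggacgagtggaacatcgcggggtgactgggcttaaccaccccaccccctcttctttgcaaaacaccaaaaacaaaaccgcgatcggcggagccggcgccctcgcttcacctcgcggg
Vegfb held 2 of these cores, and Vegfa and Vegfc held none in this window. Sequence farther upstream was not searched. Of 32851 RefSeq windows of this length, 38.6% held ACGTG or GCGTG. The letters GGGCGG, bound by Sp-family factors, occurred 2 times before Vegfa, 4 times before Vegfb and 2 times before Vegfc, counting both strands, and in 32.7% of all windows. GC content was 59.2%, 76.4% and 71.6%, against a median of 52.4% over all windows. Windows of 7 of the 8 ligands were matched by symbol, the exception being Pdgfb. Those of Pgf and Pdgfa overlapped GENCODE transcripts of the same gene. For Vegfc and Pdgfd the bases after the RefSeq start were not found in a GENCODE transcript of the gene. Only the window of Pdgfd held TATAAA on either strand, a motif found in 12.4% of all windows. A match or its absence in these letters describes the window and was tied to no measurement.

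Vegfa (chr17:46016993-46032369, minus strand) was 177, 169 and 171 CPM in NonCM of Wls fl/fl hearts, against 295, 217 and 287 in CM of the same genotype. In control hearts it was 219, 148 and 181 in NonCM, against 290, 243 and 292 in CM. No NonCM library reached a CM library within either genotype, although 219 in NonCM control replicate 1, the shallowest library, came nearest to the lowest CM value of its genotype, 243. Log2 fold changes of NonCM over CM, here and below, are with TMM unless another scaling is named. That of Vegfa was -0.94 (SE 0.10, adjusted p = 6.3e-08) in Wls fl/fl hearts and -0.91 (SE 0.11, adjusted p = 4.1e-07) in control hearts.

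Vegfb (chr19:6982473-6987651, minus strand) was 115, 102 and 111 CPM in NonCM of Wls fl/fl hearts, against 197, 195 and 196 in CM. In control hearts it was 107, 119 and 128 in NonCM, against 205, 188 and 191 in CM. The groups were far apart, and the log2 fold change was -1.16 (SE 0.06, adjusted p = 1.1e-12) in Wls fl/fl hearts and -0.94 (SE 0.07, adjusted p = 1.6e-10) in control hearts.

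Vegfc (chr8:54077606-54187096, plus strand) had 12.8, 12.7 and 11.6 CPM in NonCM of Wls fl/fl hearts, against 3.86, 4.91 and 3.68 in CM. In control hearts it had 10.3, 10.5 and 11.1 in NonCM, against 5.49, 3.67 and 6.44 in CM. NonCM was above CM in every library, with a log2 fold change of 1.28 (SE 0.16, adjusted p = 7.6e-07) in Wls fl/fl hearts and 0.77 (SE 0.18, adjusted p = 8.9e-04) in control hearts.

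Pgf (chr12:85166635-85177790, minus strand), placenta growth factor, had the widest gap of the 8. Its CPM values were 11.96, 12.3 and 11.6 in NonCM of Wls fl/fl hearts, against 1.65, 1.64 and 0.921 in CM. In control hearts they were 6.90, 11.3 and 10.8 in NonCM, against 1.61, 2.51 and 2.15 in CM. The lowest NonCM value came from the shallowest library, where Pgf had 8 reads, and in CM the gene rested on 9 to 14 reads per library. The log2 fold change was 2.85 (SE 0.22, adjusted p = 2.7e-10) in Wls fl/fl hearts and 2.11 (SE 0.22, adjusted p = 6.1e-08) in control hearts, or 7.23 times (95% interval 5.29 to 9.88) and 4.32 times (3.14 to 5.93).

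Pdgfa (chr5:138976014-138997370, minus strand), whose dimer binds Pdgfra, had 20.1, 17.7 and 20.3 CPM in NonCM of Wls fl/fl hearts, against 28.1, 26.2 and 27.0 in CM. In control hearts it had 26.7, 19.0 and 23.1 in NonCM, against 32.9, 23.8 and 25.5 in CM. The groups were apart in Wls fl/fl hearts and overlapped in control hearts on this scale. With TMM the log2 fold change was -0.80 (SE 0.11, adjusted p = 2.3e-06) in Wls fl/fl hearts and -0.60 (SE 0.12, adjusted p = 2.8e-04) in control hearts. Pdgfa shares 813 exon bases with 6330403L08Rik, an antisense gene, and the use of strand in counting is not given in the sources used here, so reads of both genes cannot be told apart.

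Pdgfb (chr15:79995874-80014977, minus strand), known from endothelium, had similar levels in both fractions: 43.1, 39.997 and 38.2 CPM in NonCM of Wls fl/fl hearts, against 40.6, 27.2 and 35.9 in CM, and 43.1, 40.8 and 37.7 in NonCM of control hearts, against 38.0, 41.8 and 34.2 in CM. The groups overlapped in both genotypes. The log2 fold change was -0.09 (95% interval -0.30 to 0.12, adjusted p = 0.463) in Wls fl/fl hearts and -0.18 (-0.41 to 0.05, adjusted p = 0.179) in control hearts, or 0.941 times (0.812 to 1.09) and 0.882 times (0.751 to 1.04). Its sign turned with scaling by library totals alone, to 0.23 in Wls fl/fl hearts and 0.07 in control hearts. When CM Wls fl/fl replicate 2 was left out, the value in Wls fl/fl hearts was -0.22 and passed the test (adjusted p = 0.0455), and when replicate 1 was left out it was 0.01. Adjusted p ranged up to 0.963 over the libraries left out.

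Pdgfd (chr9:6168584-6378850, plus strand), which is secreted as an inactive form and binds Pdgfrb once cleaved, had 20.8, 23.5 and 23.7 CPM in NonCM of Wls fl/fl hearts, against 14.9, 14.2 and 12.7 in CM. In control hearts it had 17.2, 21.4 and 18.2 in NonCM, against 9.53, 17.2 and 11.7 in CM, so that the lowest NonCM and the highest CM library were alike to 3 digits, without overlap. The log2 fold change was 0.40 (SE 0.14, adjusted p = 0.0162) in Wls fl/fl hearts and 0.39 (SE 0.16, adjusted p = 0.0456) in control hearts. The call in Wls fl/fl hearts was lost when CM Wls fl/fl replicate 3 was left out (0.31, with adjusted p = 0.111), without replicate 3 of every group (0.29, adjusted p = 0.239) and in DESeq2 (0.41, adjusted p = 0.0584). The call in control hearts was lost without CM control replicate 1 (0.21, adjusted p = 0.280), CM control replicate 3 (0.33, adjusted p = 0.158), NonCM control replicate 2 (0.25, adjusted p = 0.276), replicate 3 of every group (0.41, adjusted p = 0.185) or any of CM Wls fl/fl replicate 1 or 2 and NonCM Wls fl/fl replicate 3 (adjusted p 0.0512 to 0.0554), and in DESeq2 (0.38, adjusted p = 0.135).

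Pdgfc (chr3:81036416-81214040, plus strand), likewise secreted inactive and a ligand of Pdgfra, had 2.82, 3.19 and 3.60 CPM in NonCM of Wls fl/fl hearts, against 0.735, 1.64 and 0.818 in CM. In control hearts it had 3.45, 2.57 and 3.67 in NonCM, against 2.91, 0.387 and 1.23 in CM, with overlap. The log2 fold change was 1.29 (SE 0.40, adjusted p = 0.00796) in Wls fl/fl hearts and 0.76 (SE 0.41, adjusted p = 0.125) in control hearts. The first was lost when CM Wls fl/fl replicate 3 was left out (1.06, with adjusted p = 0.0682) and without replicate 3 of every group (0.99, adjusted p = 0.169), and the second ranged from 0.36 without CM control replicate 2 to 1.62 without CM control replicate 1, where it passed (adjusted p = 0.00565), and was 0.39 without replicate 3 of every group (adjusted p = 0.651). Pdgfc met the minimum of reads through its NonCM libraries and not in CM alone, and it shares 147 exon bases with the antisense gene Gm16000.

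Scaling by library totals alone, added after the data were seen, moved the median of all genes to 0.33 in Wls fl/fl hearts and 0.25 in control hearts on the log2 scale, against 0.01 and 0.00 with TMM, and turned the split of called genes to 7123 higher and 2553 lower in Wls fl/fl hearts (4705 and 4572 with TMM) and 5930 higher and 2028 lower in control hearts (3934 and 3803 with TMM). Without replicate 3 of every group Vegfa, Vegfb, Vegfc, Pgf and Pdgfa passed in both genotypes in the same direction. The directions of the 7 ligands other than Pdgfb were kept under library totals alone, and so were their calls, with Pdgfc passing in control hearts too (1.01, adjusted p = 0.0411). Their sizes moved with the scaling. Vegfa was then -0.63 in Wls fl/fl hearts and -0.65 in control hearts. Vegfb was -0.84 and -0.69, and Pdgfa -0.48 and -0.35. Vegfc was 1.60 and 1.02, Pgf 3.17 and 2.36, Pdgfd 0.72 and 0.64, and Pdgfc 1.61 and 1.01. With TMM the 12 cardiomyocyte markers were all lower in NonCM, with a median log2 fold change of -1.18 in Wls fl/fl hearts and -0.88 in control hearts. Vegfa had -0.94 and -0.91 beside this, and Vegfb -1.16 and -0.94. Under library totals alone the median of these markers was -0.86 and -0.62. The values that follow are again with TMM unless library totals are named. The 10 fibroblast markers were all higher, with medians of 3.33 and 2.87, and the 10 macrophage markers too, with 4.53 and 4.34. The medians of the 12 endothelial markers were -0.09 and 0.03, beside -0.09 and -0.18 for Pdgfb, and with library totals alone 0.22 and 0.28, with 9 of 12 passing as higher in each genotype, beside 0.23 and 0.07 for Pdgfb. The 9 tested pericyte and smooth muscle (mural) markers had medians of -0.17 in Wls fl/fl hearts and 0.15 in control hearts. Of these, 4 passed as higher and 5 as lower in Wls fl/fl hearts, and 4 and 3 in control hearts. With library totals alone their medians were 0.15 and 0.40. The part of the cell make-up in the ligand values was not tested.

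**Figure D3:**
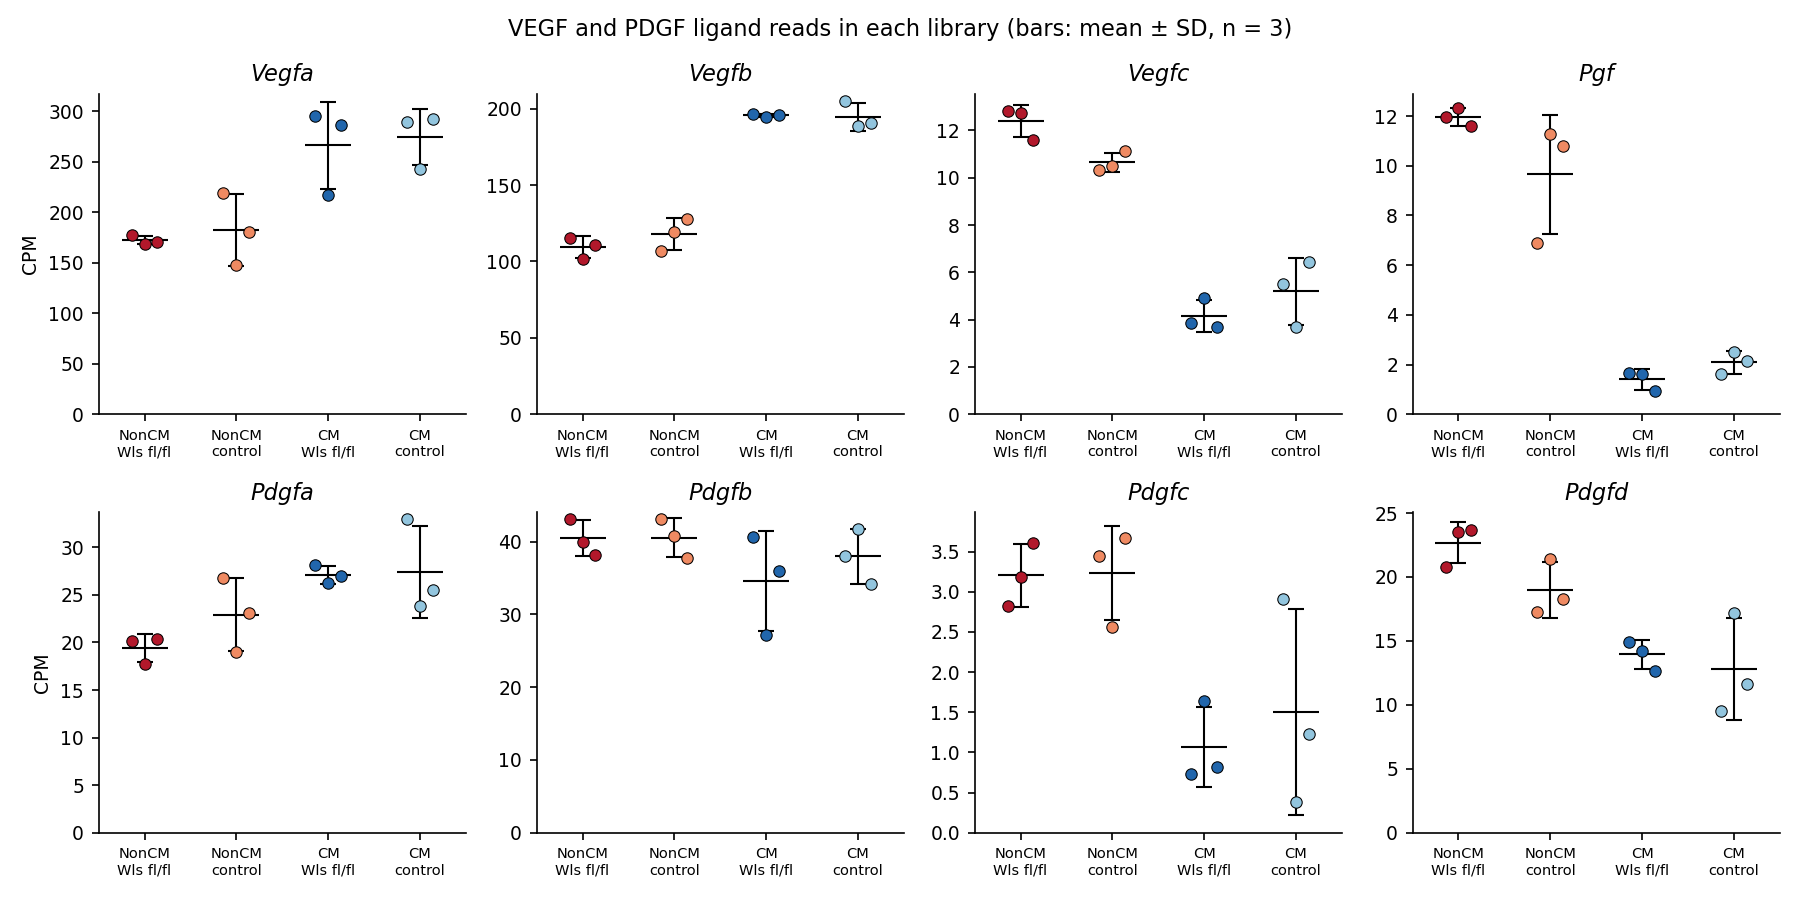
Level of each ligand, in CPM, in the 12 libraries, by group from NonCM of Wls fl/fl hearts (left) to CM of control hearts (right), with bars for mean ± SD of 3 libraries. Vegfa and Vegfb are lower in NonCM than in CM, Vegfc, Pgf and Pdgfd higher, and Pdgfb between 27.2 and 43.1 CPM in every library.

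**Figure D4:**
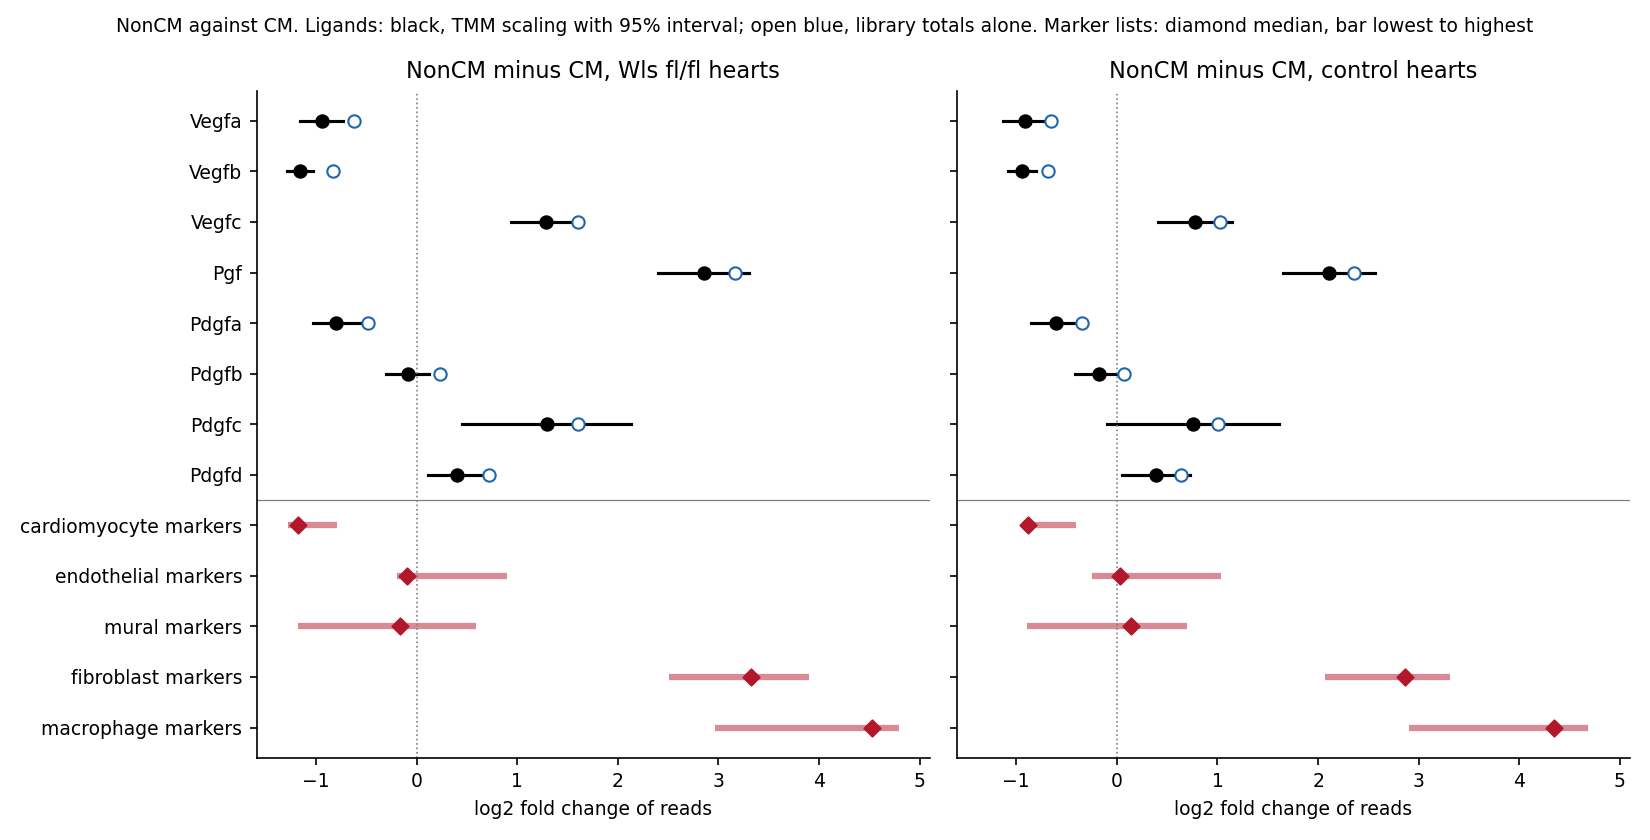
Log2 fold change of NonCM over CM in Wls fl/fl hearts (left) and control hearts (right) for the 8 ligands, with TMM scaling and its 95% interval (black) and with library totals alone (open blue), above the medians (diamonds) and lowest to highest values (bars) of 5 marker lists. In both genotypes Vegfa, Vegfb and Pdgfa lie within the range of the cardiomyocyte markers, and Pgf within that of the fibroblast markers. Pdgfb lies near 0, within the ranges of the endothelial and the pericyte and smooth muscle (mural) markers. The mural range holds Pdgfa too. No ligand reaches the medians of the fibroblast or macrophage markers.

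Wls fl/fl against control, the comparison of genotypes, gave no called ligand in either fraction. In NonCM 0 of 8 ligands passed limma at an adjusted p under 0.05 and 0 at an unadjusted p under 0.05, while of the 13271 genes tested 4.51% passed at the adjusted and 19.3% at the unadjusted threshold. In CM 0 of the 7 tested ligands passed at either threshold, against 0.0921% and 8.74% of 11944 genes. Counts of 0 were also found without replicate 3 of both genotypes, with edgeR, DESeq2 and limma-voom on recovered reads, and in the authors' deposited table the lowest adjusted p among the ligands was 0.364, for Vegfb in NonCM. Libraries of the genotypes overlapped for all but 1 of 8 ligands in NonCM, where 26.5% of genes did not overlap, and for all 7 tested ligands in CM, where 15% did not. A p that misses the threshold does not show equal levels, so intervals are given below.

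Among the VEGF ligands in NonCM, Vegfa had 1158, 1094 and 1101 normalized counts in Wls fl/fl hearts, against 1408, 1011 and 1211 in control hearts. The control values enclosed those of Wls fl/fl, and the ratio was 0.932 (95% interval 0.793 to 1.10, adjusted p = 0.639). Vegfb had 755, 659 and 714 in Wls fl/fl hearts, against 687, 814 and 857 in control hearts, a ratio of 0.905 (0.788 to 1.04, adjusted p = 0.425). The lowest control value was that of the shallowest library, and without it the log2 fold change of Vegfb was -0.24 with an adjusted p of 0.0224, the lowest of 7 fits with libraries left out, in which adjusted p reached 0.827. That highest p came without replicate 3 of both genotypes, where the log2 fold change was -0.08. The 12 cardiomyocyte markers had a median log2 fold change of -0.29 in NonCM of Wls fl/fl hearts and 9 of them passed as lower, beside -0.14 for Vegfb and -0.10 for Vegfa, and their part in these values was not tested.

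Vegfc was the ligand whose groups did not overlap in NonCM: 83.9, 82.5 and 74.7 normalized counts in Wls fl/fl hearts, against 66.5, 71.7 and 74.6 in control hearts. The nearest libraries of the groups differed by less than the spread inside either group, and the ratio of 1.13 (0.932 to 1.37) did not pass (adjusted p = 0.480). Of all genes tested, 13.9% were apart in this direction. The lowest control value of Vegfc rests on 12 reads in the shallowest library, without which its log2 fold change was 0.13 (0.18 with it). Pgf had 78.2, 79.8 and 74.7 in Wls fl/fl hearts, against 44.3, 77.0 and 72.4 in control hearts. Its low control value rests on 8 reads, the ratio was 1.23 (0.896 to 1.69, adjusted p = 0.467), and the log2 fold change was 0.30 with that library and 0.05 without it. The 10 fibroblast markers had a median of 0.56 with 8 of them passing as higher.

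Among the PDGF ligands in NonCM, Pdgfa came nearest to the threshold, with 132, 114 and 131 normalized counts in Wls fl/fl hearts, against 172, 130 and 155 in control hearts. Only control replicate 2 reached into the Wls fl/fl values, and the ratio was 0.830 (0.684 to 1.01, unadjusted p = 0.0589, adjusted p = 0.280). The highest control value rests on 31 reads in the shallowest library. Without that library the log2 fold change of Pdgfa was -0.18 (-0.27 with it). Pdgfd had 136, 152 and 152 in Wls fl/fl hearts, against 111, 146 and 122 in control hearts, with a ratio of 1.17 (0.964 to 1.41, adjusted p = 0.368). Its lowest control value rests on 20 reads in the shallowest library, without which the log2 fold change was 0.13 (0.22 with it). Pdgfb had 282, 259 and 246, against 277, 279 and 253, with a ratio of 0.972 (0.855 to 1.10, adjusted p = 0.825). This was the narrowest interval of the 8 ligands in NonCM. Pdgfc had 18.4, 20.6 and 23.2 in Wls fl/fl hearts, against 22.2, 17.5 and 24.6 in control hearts. Its interval of 0.662 to 1.43 times does not exclude changes within that range.

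In CM, Vegfb was the most tightly measured ligand: 1257, 1239 and 1238 normalized counts in Wls fl/fl hearts, against 1296, 1202 and 1209 in control hearts. The control values again enclosed those of Wls fl/fl, and the ratio of 1.008 had an interval of 0.935 to 1.09 (adjusted p = 0.967). Vegfa had 1888, 1380 and 1816 in Wls fl/fl hearts, against 1832, 1551 and 1855 in control hearts, a ratio of 0.965 (0.824 to 1.13, adjusted p = 0.926). The lowest library of each genotype lay well below the other 2. Vegfc had 24.7, 31.3 and 23.3 in Wls fl/fl hearts, against 34.7, 23.4 and 40.9 in control hearts (ratio 0.819, 0.574 to 1.17, adjusted p = 0.756). Pgf had 10.6, 10.4 and 5.83, against 10.2, 16.0 and 13.6 (ratio 0.686, 0.411 to 1.14, adjusted p = 0.686), on no more than 14 reads in any CM library. Without replicate 3 of both genotypes the log2 fold change in CM was -0.04 for Vegfc (-0.29 with it) and -0.27 for Pgf (-0.54 with it).

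Pdgfa in CM had 180, 167 and 171 normalized counts in Wls fl/fl hearts, against 208, 152 and 162 in control hearts, with a ratio of 1.0006 (0.841 to 1.19, adjusted p = 0.999). Pdgfb had 260, 173 and 227 in Wls fl/fl hearts, against 240, 267 and 217 in control hearts (ratio 0.903, 0.739 to 1.10, adjusted p = 0.783). Pdgfd had 95.2, 90.7 and 80.3 in Wls fl/fl hearts, against 60.3, 110 and 74.0 in control hearts (ratio 1.12, 0.845 to 1.49, adjusted p = 0.842). The control libraries of Pdgfd spread widely, with the highest and the lowest of all 6 values among them. Without replicate 3 of both genotypes the log2 fold change in CM was -0.25 for Pdgfb (-0.15 with it) and -0.039 for Pdgfa (0.00 with it). Pdgfc, with 4.70, 10.4 and 5.18 in Wls fl/fl hearts, against 18.4, 2.47 and 7.78 in control hearts, had a mean under 10 and was not tested.

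**Figure D5:**
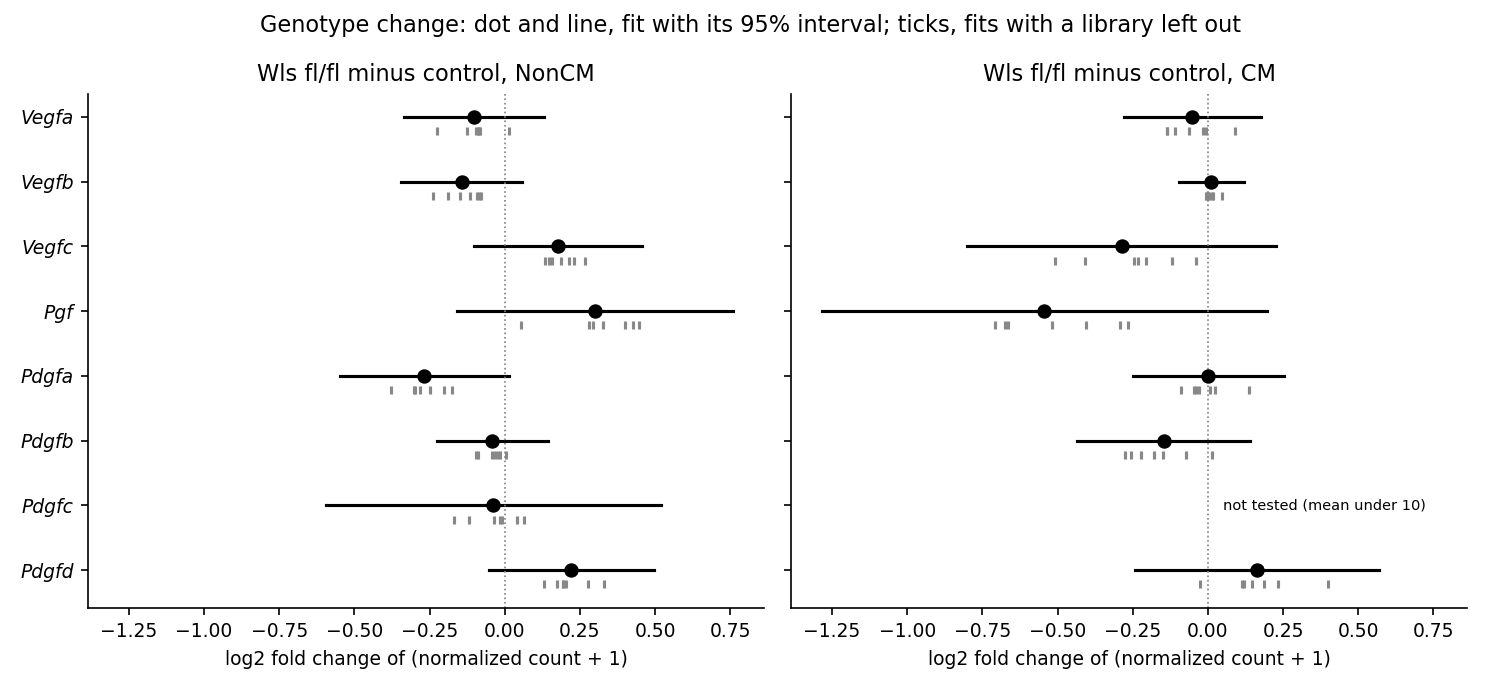
Log2 fold change of (normalized count + 1), Wls fl/fl minus control, of each ligand in NonCM (left) and CM (right), with its 95% interval, and below each line the values with a library left out (ticks). Every interval includes 0, and the widest, for Pgf in CM, runs from -1.28 to 0.20.

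The genotype change was also compared between the fractions, as the change in NonCM minus the change in CM in a joint edgeR fit. No ligand passed at an adjusted p under 0.05, as against 1.41% of 13993 genes, and 1 of 8, Vegfb, had an unadjusted p under 0.05, as against 13.5% of genes. For Vegfb the difference was -0.21 on the log2 scale (SE 0.09, 95% interval -0.40 to -0.03, adjusted p = 0.282). Vegfc (0.51, -0.01 to 1.03, adjusted p = 0.380) and Pgf (0.74, -0.01 to 1.49, adjusted p = 0.371) had positive values whose intervals just included 0. With a library left out Vegfc ranged from 0.29 (without replicate 3 of every group) to 0.68 (without CM control replicate 2) and Pgf from 0.42 (without CM Wls fl/fl replicate 3) to 0.90 (without CM control replicate 1), with adjusted p of up to 0.915 in each. Without replicate 3 of every group the value was 0.44 for Pgf, -0.14 for Vegfb, -0.11 for Pdgfa, 0.18 for Pdgfb, -0.11 for Pdgfd and -0.01 for Vegfa. Pdgfc had 0.53 (-0.71 to 1.77), Pdgfa -0.20 (-0.54 to 0.15), Pdgfb 0.09 (-0.22 to 0.41), Vegfa -0.04 (-0.34 to 0.27) and Pdgfd 0.01 (-0.44 to 0.46). In the same comparison the 12 cardiomyocyte markers had a median of -0.33, with 9 passing as lower, and the 10 fibroblast markers one of 0.44, with 3 passing as higher, and their part in the ligand values was not tested. The same difference is that between the NonCM over CM values of the Wls fl/fl and control hearts given above, and for Wls it was 1.15 (adjusted p = 0.0103, up to 0.243 with libraries left out).

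The receptors of these ligands were examined in the same fits. In Wls fl/fl hearts 5 of 8 receptors and coreceptors were higher in NonCM than in CM and 1 lower, while 33.6% of all genes were higher and 32.7% lower. In control hearts 5 of 8 were higher and 0 lower, beside 28.1% and 27.2% of all genes, with a median log2 fold change of 0.30 against 0.00 over all genes: Pdgfra (3.01), the receptor marking fibroblasts, Pdgfrl (2.84), a receptor-like protein, Flt4 (0.79), the receptor of Vegfc, Nrp1 (0.35), a coreceptor of Vegfa, and Pdgfrb (0.26). The call of Pdgfrb was lost, with an adjusted p of up to 0.166, without CM control replicate 3, NonCM control replicate 2 or replicate 3 of every group. Kdr and Flt1, the endothelial receptors of Vegfa, had -0.10 and 0.20 in control hearts and did not pass there. In Wls fl/fl hearts the lowest of the 8 values was -0.15. Per kilobase Pdgfra averaged 53.0 ± 2.09, 42.5 ± 5.8, 4.21 ± 0.306 and 4.47 ± 0.278 CPM in NonCM of Wls fl/fl hearts, NonCM of control hearts, CM of Wls fl/fl hearts and CM of control hearts, and Kdr 21.9 ± 0.545, 22.6 ± 2.21, 19.5 ± 1.62 and 19.9 ± 1.73. With library totals alone 7 of 8 receptors were higher in control hearts and the median was 0.56. Of all 13993 genes 5930 were then higher and 2028 lower there, with a median of 0.25. Pdgfrl averaged under 10 normalized counts in CM, was not tested there and stands in the comparison of fractions through NonCM.

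Between genotypes 1 of 8 receptors passed in NonCM, Pdgfrl, with 105 ± 13.2 normalized counts in Wls fl/fl hearts and 63.1 ± 11.96 in control hearts (log2 fold change 0.74, SE 0.17, adjusted p = 0.0435). Of all genes tested in NonCM 4.51% passed. The median of the 8 was -0.02, against 0.02 over all genes. The 10 fibroblast markers had a median of 0.56 in NonCM, with 8 passing as higher. Their part in the Pdgfrl value was not tested. In CM 0 of 7 passed, also at an unadjusted p under 0.05, and the smallest p belonged to Pdgfrb (-0.13, adjusted p = 0.645) and Flt4 (-0.18, adjusted p = 0.697). The Pdgfrl call was lost in DESeq2 and without NonCM control replicate 3 or any of the 3 NonCM Wls fl/fl libraries (adjusted p up to 0.426).

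Of the genes that process the ligands, 9 were tested. In Wls fl/fl hearts and in control hearts alike 5 were higher in NonCM and 3 lower. Of all genes 33.6% were higher and 32.7% lower in Wls fl/fl hearts, and 28.1% and 27.2% in control hearts. The median in control hearts was 1.28, and with library totals alone 5 were higher and 1 lower there. Of all 13993 genes 5930 were then higher and 2028 lower. With TMM the higher genes in control hearts were Ccbe1 (3.61), Adamts14 (1.86), the plasminogen activators Plau (1.95) and Plat (1.28), and the proprotein convertase Pcsk5 (1.38). Furin (-0.33), Adamts3 (-0.66) and Ctsd (-0.57) were lower, and the calls of Furin and Adamts3 were lost with library totals alone, as was that of Adamts3 without replicate 3 of every group (adjusted p = 0.188). Between genotypes in NonCM 1 of 9 passed, beside 4.51% of all genes tested. This was Adamts14, with 136 ± 6.87 normalized counts in Wls fl/fl hearts and 85.3 ± 6.87 in control hearts (0.67, SE 0.11, adjusted p = 0.0137). It also passed in the comparison of genotype changes between fractions (1.10, adjusted p = 0.0381), a call lost with library totals alone (adjusted p = 0.0507), with no filter (adjusted p = 0.0594) and in most fits with libraries left out (adjusted p up to 0.734). The 10 fibroblast markers had a median of 0.44 in that comparison and of 0.56 between genotypes in NonCM, where 8 passed as higher. Their part in these Adamts14 values was not tested. Its NonCM call was lost without NonCM control replicate 3 or any of the 3 NonCM Wls fl/fl libraries (adjusted p up to 0.319). In CM 0 of 9 passed, with Ccbe1 (0.72, adjusted p = 0.558) and Adamts14 (-0.47, adjusted p = 0.637) of smallest p.

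Hypoxia-inducible factors turn on Vegfa in low oxygen, and their pathway was read from 9 tested regulators and 19 tested targets other than Vegfa. In Wls fl/fl hearts 2 regulators were higher in NonCM and 6 lower, beside 33.6% and 32.7% of all genes. In control hearts, where 28.1% of all genes were higher and 27.2% lower, 2 regulators were higher, Hif3a (0.68) and Vhl (0.59), and 4 lower, Hif1a (-0.56), Egln1 (-0.74), Egln3 (-0.89) and Hif1an (-0.60), with a median of -0.20. Of the 19 targets 7 were higher and 7 lower in each genotype, with a median of -0.02 in control hearts. With library totals alone 3 regulators were higher and 4 lower (median 0.05), and 9 targets were higher and 6 lower (median 0.23), in control hearts. Of all 13993 genes 5930 were then higher and 2028 lower there (median 0.25). With TMM the higher targets in control hearts were Pfkfb4 (1.61), Pfkfb3 (1.47), Adm (1.35), P4ha1 (0.90), Slc2a1 (0.55), Ndrg1 (0.40) and Kdm3a (0.37). The lower targets were Hk2 (-0.80), Ak4 (-0.77), Pgk1 (-0.73), Pdk1 (-0.66), Ldha (-0.65), Higd1a (-0.61) and Bnip3 (-0.50). Adm encodes the vascular peptide adrenomedullin. The call of Bnip3 was lost with library totals alone. Without a single library those of Hif3a (CM control replicate 1 or NonCM control replicate 2, adjusted p up to 0.149) and Slc2a1 (6 libraries and both DESeq2 and limma-voom, adjusted p up to 0.204) were lost, and that of Ndrg1 without replicate 3 of every group (adjusted p = 0.110).

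Between genotypes 1 of 9 regulators passed in NonCM, Hif1an, an oxygen sensor that restrains the factors, with 544 ± 17.4 normalized counts in Wls fl/fl hearts and 675 ± 15.8 in control hearts (-0.31, SE 0.06, adjusted p = 0.0192). Of the targets 1 of 19 passed, Pdk1, a brake on pyruvate entry to the mitochondrion, with 563 ± 47.1 in Wls fl/fl hearts and 731 ± 22.9 in control hearts (-0.38, SE 0.07, adjusted p = 0.0219). The medians were 0.02 for the regulators and -0.07 for the targets, and 4.51% of all genes tested in NonCM passed. The 12 cardiomyocyte markers had a median of -0.29 in NonCM, with 9 passing as lower. Their part in the Hif1an and Pdk1 values was not tested. Both calls were lost without NonCM control replicate 3 or NonCM Wls fl/fl replicate 2 or 3 (adjusted p up to 0.450 and 0.378). In CM 0 of 9 and 0 of 19 passed, with Egln3 (0.39, adjusted p = 0.424), Hif3a (-0.54, adjusted p = 0.553), P4ha1 (0.35, adjusted p = 0.280) and Pgk1 (0.26, adjusted p = 0.399) of smallest p. At an unadjusted p under 0.05 the counts in CM were 2 of 9 and 5 of 19, beside 8.74% of all genes tested. Egln3 passed without CM control replicate 1 (adjusted p = 0.0348), and reached 0.980 with other libraries left out. In the comparison of genotype changes between fractions Pdk1 (-0.36, adjusted p = 0.0454) and Hk2 (-0.31, adjusted p = 0.0426) passed, beside a median of -0.33 and 9 of 12 passing as lower for the cardiomyocyte markers, whose part was not tested. Each lost its call without any single library other than NonCM Wls fl/fl replicate 1 and under DESeq2 size factors, upper-quartile scaling and library totals alone.

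Of 19 other vascular ligands and receptors, 9 were higher and 5 lower in NonCM of Wls fl/fl hearts, where 33.6% and 32.7% of genes were. In NonCM of control hearts 9 were higher and 4 lower, beside 28.1% and 27.2% of all genes. With library totals alone 12 of the 19 were higher and 3 lower in control hearts, with a median of 0.44. Of all 13993 genes 5930 were then higher and 2028 lower, with a median of 0.25. With TMM the median of the 19 in control hearts was 0.19. Figf (3.60), the older symbol of Vegfd, was among the higher ones with 37.8 ± 4.38 normalized counts in NonCM and 2.44 ± 2.32 in CM, each on the scale of its own table, followed by Hgf (2.16), Esm1 (2.13), Fgf2 (1.88), Jag1 (1.01), Angpt2 (0.96), Tek (0.84), Notch1 (0.74) and Vash1 (0.50). Figf, Hgf and Esm1 averaged under 10 normalized counts in CM and were not tested there, so Figf and Hgf stand in this count through NonCM, while Esm1 averaged under 10 in NonCM as well. Fgf1 (-0.91), Angpt1 (-0.80), Hbegf (-0.69) and Angptl4 (-0.36) were lower. Angpt1 and Angpt2, ligands of the endothelial receptor Tek, thus differed in opposite directions. The call of Angptl4 was lost with library totals alone, and that of Esm1, at 1.08 ± 0.139 normalized counts in CM, without any CM control library (adjusted p up to 0.0881) and in DESeq2.

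Between genotypes 1 of 18 of these passed in NonCM, beside 4.51% of all genes tested, and the median was 0.05. The gene called was Fgf2, with 195 ± 10.4 normalized counts in Wls fl/fl hearts and 146 ± 8.71 in control hearts (0.42, SE 0.09, adjusted p = 0.0354). The 10 fibroblast markers had a median of 0.56 in NonCM, with 8 passing as higher. Their part in the Fgf2 value was not tested. The call was lost in DESeq2, under upper-quartile scaling and without NonCM control replicate 2 or 3 or any of the 3 NonCM Wls fl/fl libraries (adjusted p up to 0.452). In CM 0 of 16 passed, with 2 at an unadjusted p under 0.05 (8.74% of all genes), Angptl4 (0.25, adjusted p = 0.407) and Angpt1 (-0.39, adjusted p = 0.446). Without replicate 3 of both genotypes 0 genes of any kind were called in NonCM, so none of the NonCM genotype calls of these lists was kept there.

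The genes most like each ligand across the 12 libraries were found by Pearson's r of log2(CPM + 1), among 8156 genes with a mean of 50 or more in both tables. The libraries form 2 fractions, and r therefore follows mostly the gap between them, for which it is given as a description only. Vegfb was nearest to Fastk (0.996) and Prkar2a (0.994), and Vegfa to Ccdc141 (0.972) and Rcan1 (0.966). Pdgfa was nearest to Aqp4 (0.972) and Fbxw7 (0.965), and Pdgfd to Max (0.978) and Aoc3 (0.975). Pdgfb, which did not separate the fractions, had the weakest likeness, with Mthfsd (0.858) and Phax (0.853).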

How the data were processed

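Bulk RNA-seq libraries, 12 were grouped by labelled genotype and fraction into 4 groups. The submitters' processing notes name STAR, DESeq2 and mm10. The sources used here name no annotation, counting tool or use of strand. The deposited signal values are read counts that the authors divided by a size factor within each table of 6 libraries. This was checked on the values, 100% of which were whole reads to a tolerance of 0.01. Per the file headers the tables also hold the authors' log2 fold changes, p-values, adjusted p-values and a Wald statistic (a score, not used here).

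Genotypes were compared within each table by limma 3.58.1 (R 4.3.3, with a mean trend) on log2(value + 1), keeping genes that averaged at least 10. Fractions and the interaction were tested by edgeR 4.0.16 (quasi-likelihood, TMM, filterByExpr) on the recovered reads of all 12 libraries. P-values were adjusted by Benjamini-Hochberg over all genes tested, at a threshold of 0.05. Intervals are 95%. Groups of 3 against 3 cannot go below an exact permutation p of 0.1. The code was tested on simulated data. Lengths and positions came from GENCODE M21 on GRCm38 (mm10), with 93.7% of symbols matched to 1 gene. Upstream sequences came from RefSeq (GRCm38.p6).

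The ligands, gene lists and marker lists were chosen with earlier results of these data known. Of the lists, genes past the threshold are named, and otherwise the 2 of smallest p in each fraction. For each ligand with a mean of 50 or more in both tables the 2 most similar genes are named. Alternatives were other scalings, filters (none, or a mean of 50), pseudocounts of 0.5 and 5, a threshold of 0.1, DESeq2 1.42.0, edgeR, limma-voom and leaving out libraries.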

Additional observations from a re-analysis of the deposited data

How the results depend on the processing

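The ligand results kept their direction and side of the threshold in 654 of 708 alternative values. Of the rest, 36 changed sign, 13 lost a call and 5 gained one. Between genotypes and in the difference of genotype changes no ligand was called, so keeping the side of the threshold there meant staying uncalled. The call of Pdgfd between fractions in control hearts was lost in 7 fits with libraries left out and in DESeq2. No paired analysis was possible because the groups share no library number in the labels, which tie no CM to a NonCM library of the same heart. Scaling by library totals alone was chosen after seeing the data. In CM, 11 called genes became 41 with no filter, 24 in DESeq2, 17 in limma-voom, 21 at an adjusted p under 0.1, 5 to 18 with 1 library left out and 2 without replicate 3 of both genotypes. In NonCM, 598 became 1446 in edgeR, 1477 in limma-voom, 1120 at an adjusted p under 0.1, 77 to 1634 with 1 library left out and 0 without replicate 3 of both genotypes. Upper-quartile scaling turned the NonCM split to 266 higher and 371 lower, against 328 and 270. The difference of genotype changes between fractions had 198 calls (46 higher, 152 lower), against 125 with DESeq2 size factors, 39 with library totals alone (37 higher, 2 lower), 400 with no filter, 371 in DESeq2, 326 in limma-voom, 0 to 296 with 1 library left out and 1 without replicate 3 of every group. Of the ligands, 0 to 1 were called between genotypes in NonCM with libraries left out, and between fractions 5 to 8 in Wls fl/fl hearts and 5 to 6 in control hearts. Some log2 values near 0 changed sign. Pdgfa in CM was -0.022 in edgeR, -0.017 in DESeq2, -0.012 in limma-voom and -0.039 without replicate 3 of both genotypes. The interaction was 0.026 for Vegfa with library totals alone and 0.0069 in limma-voom, and for Pdgfd -0.011 with no filter, -0.028 in limma-voom and -0.11 without replicate 3 of every group. Pdgfb in NonCM against CM was 0.23 (Wls fl/fl hearts) and 0.069 (control hearts) with library totals alone. With 1 library left out, ranges that crossed 0 in CM were -0.14 to 0.089 for Vegfa, -0.0079 to 0.046 for Vegfb, -0.090 to 0.14 for Pdgfa, -0.28 to 0.015 for Pdgfb and -0.027 to 0.40 for Pdgfd. In NonCM they were -0.22 to 0.015 for Vegfa, -0.095 to 0.0032 for Pdgfb and -0.17 to 0.063 for Pdgfc. For the interaction they were -0.16 to 0.047 for Vegfa, -0.032 to 0.19 for Pdgfb, -0.33 to 0.93 for Pdgfc and -0.23 to 0.18 for Pdgfd, and for Pdgfb in NonCM against CM of Wls fl/fl hearts -0.22 to 0.0064. The cause of these moves was not tested. Depth limits Pdgfc and Pgf in CM and in NonCM control replicate 1.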
